A study of Mus musculus with 2 samples.

Results

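The immunoglobulin constant chains and the genes of antibody secretion were followed through the stromal vascular fraction, the non-adipocyte cells, of mouse epididymal white fat. The 10 genes are the heavy-chain constant genes Ighm, Ighd, Igha and Ighg2c, the light-chain constant genes Igkc, Iglc1 and Iglc2, and the secretion genes Jchain, Mzb1 and Xbp1. They were taken by symbol from the 32285 genes of each count table, and all 10 were found in both. The list was selected on levels that an earlier reading of these same counts had shown, so the levels are given as a description and without a test.

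The knockout mice carried a myeloid conditional knockout of Camk2d (Camk2d-CKO), a calcium- and calmodulin-dependent kinase gene, and the others were wild type. Both groups had been fed a high-fat diet for 10 weeks. The driver of the deletion, the exons deleted, and the sex, age and number of mice behind each library are not given in the sources used here. Each genotype was 1 droplet library counted at the 3′ end of transcripts, both under 1 batch label, so genotype and library cannot be told apart. A free-text label of both samples names embryonic hindlimb, while every other label names epididymal fat. The marker gates held 3727 knockout and 3747 wild-type barcodes with adipose progenitor genes, and 1331 and 3234 barcodes with macrophage genes.

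B cells carry an immunoglobulin on their surface made of heavy and light chains, and naive cells use the IgM and IgD classes, which are spliced from the same precursor transcript. On activation a B cell can switch its heavy chain to IgG, IgE or IgA, and it can become an antibody-secreting cell that pours out the same receptor as soluble antibody. Each cell normally keeps a single heavy-chain class and a single light chain, kappa (Igkc) or lambda (Iglc1, Iglc2, Iglc3), so the constant gene that leads in a barcode tells the class it makes. Visceral fat and the body cavities around it are known in mice for innate-like B cells and for antibody-secreting cells that make IgM.

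Sequencing gave 87015918 UMIs (unique molecular identifiers, 1 per captured transcript) over 10631 knockout barcodes, a median of 7385 each. The 15555 wild-type barcodes shared 75436677 UMIs, a median of 3094 each. After filters 9184 knockout and 14852 wild-type barcodes remained, and 48 barcode sequences occurred in both libraries. Barcodes were gated on marker genes that include none of the 10 genes. The antibody-secreting gate held 11 knockout and 4 wild-type barcodes (12 and 6 before removal of high doublet scores), and the B cell gate held 363 and 615, or 3.95% and 4.14% of the barcodes kept. All intervals below are exact 95% intervals that cover counting error only, and no value has a replicate.

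Positions are given on GRCm38. The heavy-chain constant genes stand close together on the minus strand of chromosome 12: Igha at chr12:113254830-113260236, Ighg2c at chr12:113285325-113288932, Ighd at chr12:113406604-113416324 and Ighm at chr12:113418558-113422730. Igkc is at chr6:70726435-70726966 on the plus strand, where it overlaps the long non-coding RNA Gm30211. Iglc1 (chr16:19061618-19062071), its neighbour Iglc3 (chr16:19065230-19065681) and Iglc2 (chr16:19198396-19200351) are on the minus strand. Jchain is at chr5:88519809-88527891 (minus) and Xbp1 at chr11:5520659-5525893 (plus).

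Because reads were taken from the 3′ end, the last 120 coding bases of the lambda genes show which of them can be told apart. They are printed 5′ to 3′ on the coding strand (minus strand of chromosome 16, GRCm38), and capitals mark the 39 positions at which the 3 genes are not all alike.
Iglc1: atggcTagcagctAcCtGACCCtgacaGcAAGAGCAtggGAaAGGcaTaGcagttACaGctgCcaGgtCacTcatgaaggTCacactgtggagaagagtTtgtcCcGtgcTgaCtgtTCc
Iglc2: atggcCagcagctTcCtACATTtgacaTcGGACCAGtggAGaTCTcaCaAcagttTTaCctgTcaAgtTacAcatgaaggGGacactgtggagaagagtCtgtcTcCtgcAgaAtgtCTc
Iglc3: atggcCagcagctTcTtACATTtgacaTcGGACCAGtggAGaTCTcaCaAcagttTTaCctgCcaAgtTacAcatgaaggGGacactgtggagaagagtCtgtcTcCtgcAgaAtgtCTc
Iglc2 (chr16:19198539-19198658) and Iglc3 (chr16:19065368-19065487) differed at 2 of these 120 positions, and at 11 of the 314 aligned bases of their coding sequence (96.5% identity). Iglc1 (chr16:19061755-19061874) differed from each of them at 38 of the 120 positions, with 74.8% and 75.4% identity over the coding sequence. Counts of Iglc2 and Iglc3 could therefore share reads and are given together where a cell is assigned a light chain, whereas Iglc1 has a distinct end.

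The antibody-secreting barcodes carried 1 dominant class each, and the knockout ones showed 3 classes. Of the 12 knockout barcodes, 7 were led by Ighm, 4 by Igha and 1 by Ighg2c. Of the 6 wild-type barcodes, 5 were led by Ighm, and the sixth had 3676 Igkc UMIs but only 8 heavy-chain constant UMIs, of which 6 were Igha. Ighd was at 0 in all 18 barcodes, which allows up to 13.6 CPM (counts per 1000000 UMIs) in the 11 knockout barcodes kept and 118 CPM in the 4 wild-type ones. In the knockout barcodes the leading class held at least 97.3% of the heavy-chain UMIs and the leading light chain at least 93.4% of the light-chain UMIs.

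The knockout barcodes were deep and rich in immunoglobulin. They held 4572 to 36695 UMIs (median 19098.5), against 1757 to 7768 (median 5146) in the wild type. Immunoglobulin and Jchain transcripts made up 15.7 to 66.5% of their UMIs (median 38.5%), against 11.5 to 50.6% (median 26.2%) in the wild type. These ranges overlap.

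**Figure D1:**
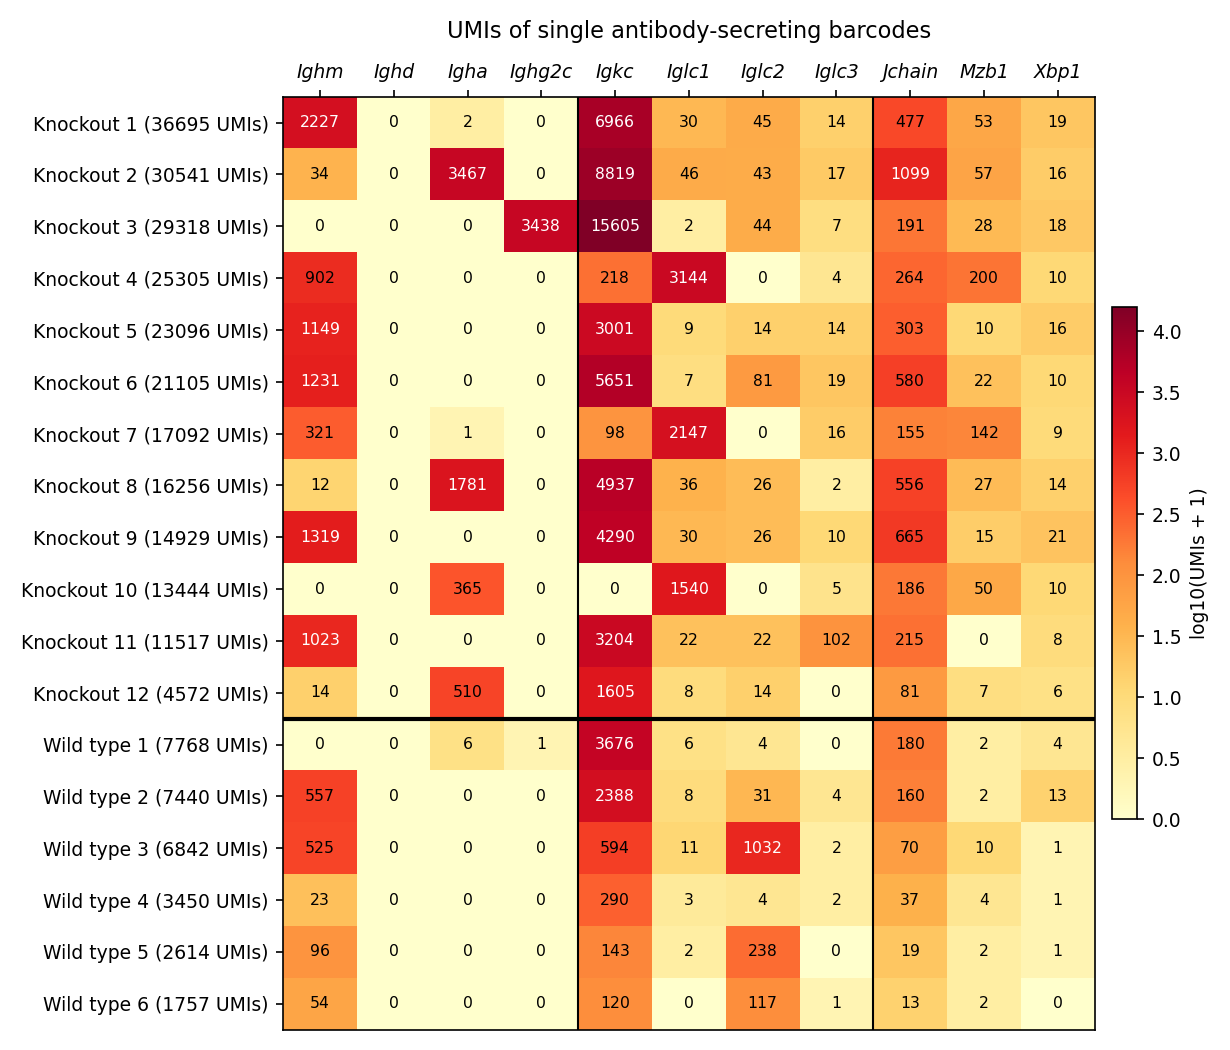
UMIs of each heavy-chain, light-chain and secretion gene (columns, Iglc3 added) in each antibody-secreting barcode (rows, knockout above wild type, total UMIs in brackets), high doublet scores included; colour is log10(UMIs + 1). Each row has 1 strong heavy-chain column, except wild type 1, which has 3676 Igkc UMIs beside 6 Igha UMIs, and Ighd is 0 throughout.

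Among heavy chains, IgM barcodes of the knockout held 321 to 2227 Ighm UMIs, and those of the wild type 23 to 557. The 4 knockout barcodes led by Igha, the constant gene of the mucosal class IgA, held 365 to 3467 Igha UMIs. The single barcode led by Ighg2c, the constant gene of an IgG class, held 3438 Ighg2c and 15605 Igkc UMIs. That 1 barcode held 94.6% of all Ighg2c UMIs in the knockout library. The richest Igha barcode likewise held 46.3% of the knockout Igha UMIs, and the 20 richest barcodes held 95.3%. Library-wide levels of the switched classes thus rest on few barcodes.

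Among light chains, Igkc led in 9 knockout and 4 wild-type barcodes. Iglc1 led in the other 3 knockout barcodes, with 1540 to 3144 UMIs and no Iglc2 UMI in any of them. No wild-type barcode was led by Iglc1, and Iglc2 led in 2. Those 2 wild-type barcodes were less pure, since Iglc2 and Iglc3 held 63.1% and 62.1% of their light-chain UMIs and Igkc most of the rest. Another wild-type barcode had 120 Igkc beside 117 Iglc2 UMIs, and 2 of these 3 barcodes had a high doublet score.

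Jchain, whose protein joins IgM and IgA units into polymers, was found in all 18 barcodes, with 81 to 1099 UMIs (median 283.5) in the knockout, against 13 to 180 (median 53.5) in the wild type. The ranges overlap, and the deepest barcodes were in the knockout. Mzb1, an endoplasmic reticulum chaperone that helps assemble IgM, had 0 to 200 UMIs (median 27.5) in the knockout, against 2 to 10 (median 2) in the wild type. Xbp1, the transcription factor of the secretory programme, had 6 to 21 UMIs (median 12) in the knockout, against 0 to 13 (median 1) in the wild type.

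Among the gated knockout barcodes Mzb1 was higher in those with an Iglc1 light chain. As CPM over the UMIs of all genes other than immunoglobulin genes, it stood at 4413, 9666 and 9936 in the 3 knockout barcodes led by Iglc1, against 0 to 3378 (median 1975) in the 9 led by Igkc, and the ranges do not overlap. In the wider set of Jchain-bearing knockout barcodes described below they do overlap, at 489 to 11143 in 6 barcodes led by Iglc1 and 0 to 3682 in 16 led by Igkc. Xbp1 did not follow it: it stood at 483 to 883 in the Iglc1 barcodes and at 708 to 2578 in the Igkc barcodes. Jchain was at 10845 to 16418 in the Iglc1 barcodes and at 16354 to 77951 in the Igkc barcodes, ranges that overlap slightly. The pattern was seen after the values were known, and some of these barcodes share variable segments, as described next.

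Variable segments recurred among the secreting cells. In the knockout, every one of the 12 gated barcodes had a leading heavy and a leading light variable segment, which formed only 7 pairs. Including barcodes outside the gate with at least 10 Jchain UMIs and Mzb1 or Xbp1, Ighv4-1 with Igkv19-93 was found in 5 barcodes, all led by Ighm. Ighv10-1 with Igkv10-94 was found in 4, all led by Igha, and Ighv7-3 with Iglv1 in 4, all led by Ighm and Iglc1. Ighv4-1 with Igkv6-17 was found in 2, which lay in the B cell gate. In the wild type only Ighv9-3 with Iglv2 recurred, in 2 barcodes. The junctions between segments were not read, so shared pairs are not shown to be clones.

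The wider set of Jchain-bearing barcodes held 22 knockout members (15 led by Ighm, 6 by Igha and 1 by Ighg2c) and 7 wild-type ones (6 led by Ighm). The knockout barcodes outside the gate lay among barcodes with markers of more than 1 lineage (3), barcodes of no gate (3), progenitors (2) and B cells (2).

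As sums over the gate, the knockout and wild-type antibody-secreting cells differed in class and light chain. Igha stood at 27748 CPM in the knockout, against 235 CPM in the wild type, and Ighg2c at 15573 and 39.2 CPM, the last from 1 UMI. Iglc1 stood at 31761 and 1098 CPM (log2 ratio 4.85, 4.32 to 5.45), while Iglc2 stood at 1363 and 42000 CPM (-4.95, -5.13 to -4.76). Mzb1 was at 2722 and 706 CPM (1.95, 1.27 to 2.71). Without the 3 barcodes led by Iglc1, the Iglc1 ratio was -0.00082, the Mzb1 ratio 0.84 (0.15 to 1.63) and the Igkc ratio 0.18. The Iglc2 difference rests largely on 1 wild-type barcode with 1032 UMIs. With the Iglc2 UMIs of the richest barcode subtracted in each library, but its total UMIs kept, the ratio was -0.62.

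Of the 9 genes tested in this gate (a mean of at least 50 CPM over the 2 libraries, and at least 30 UMIs in 1 of them), 4 passed 2-fold upward in the knockout (Igha, Ighg2c, Iglc1 and Mzb1) and 1 passed it downward (Iglc2). Without the barcodes led by Iglc1, 2 passed it upward. Over all 559 genes tested, 26.8% were higher and 4.11% lower, with a median log2 ratio of 0.51. The wild-type sum held 25500 UMIs, so that 1 UMI is worth 39.2 CPM. Ighm (32083 and 43333 CPM), Igkc (232786 and 272471 CPM) and Xbp1 (639 and 745 CPM) had log2 ratios of -0.43, -0.23 and -0.22, whose sign turns positive with TMM or median-of-ratios scaling. Those scalings subtract shifts of -0.66 and -0.79 from every ratio of this gate. Jchain was at 20242 and 17529 CPM (log2 ratio 0.21).

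In the B cell gate nearly every cell was IgM or IgM and IgD. Cells with at least 5 heavy-chain constant UMIs were led by Ighm and Ighd in 337 of 343 knockout cells (98.3%, 96.2 to 99.4%) and in all 535 wild-type cells. Switched cells were 6 of 343 in the knockout (1.75%, 0.645 to 3.77%), 2 led by Ighg1 and 4 by Ighg2b. The wild type had 0 of 535, which allows a share of up to 0.561%. Over all B cells Ighg1 had 60 knockout UMIs and 0 wild-type UMIs (at least 29.7-fold higher in the knockout, against a floor of 3 counts), and Ighg2b had 56 and 0 (at least 27.7-fold). All 60 Ighg1 UMIs lay in 2 cells, and the Ighg2b UMIs in 9. The 6 cells held 11 to 49 heavy-chain UMIs, 25 to 207 Igkc UMIs and no Jchain, and the leading class held 58.3 to 100% of the heavy-chain UMIs.

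Counted by leading gene, lambda cells were a larger share of B cells in the knockout, but summed UMIs went the other way. Lambda genes held 21.1% of the light-chain UMIs in knockout B cells, against 26.7% in wild-type B cells. Cells with at least 5 light-chain UMIs were led by a lambda gene in 42 of 361 knockout cells (11.6%, 8.51 to 15.4%) and in 38 of 566 wild-type cells (6.71%, 4.79 to 9.10%), intervals that overlap narrowly. Iglc1 led in 31 knockout cells (8.59%, 5.91 to 12.0%) and 19 wild-type cells (3.36%, 2.03 to 5.19%), whose intervals do not overlap. Iglc2 or Iglc3 led in 11 (3.05%) and 19 (3.36%). In kappa-led cells Igkc held a median of 85.5% of the light-chain UMIs in the knockout, against 78.9% in the wild type. Cells led by Iglc1 were less pure, with Iglc1 at a median of 68.4% and 72%. It reached 90% in only 5 of the 31 knockout and 2 of the 19 wild-type cells.

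The level of Ighd, the IgD constant gene of mature naive cells that shares its transcript unit with Ighm, differed between the libraries. It stood at 331 CPM (308 to 355) in knockout and 99.9 CPM (89.7 to 111) in wild-type B cells, a log2 ratio of 1.73 (1.55 to 1.91). With each cell thinned to 2000 UMIs, Ighd was found in 162 of 357 knockout cells (45.4%) and 135 of 580 wild-type cells (23.3%), against 65.3% and 34.8% unthinned. In macrophages, which should not make it, the thinned shares were 0.422% and 0.523% at median depths of 11588 and 4583.5 UMIs, against 5508 and 4566 in B cells.

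Ighm was at 3608 CPM in knockout and 2592 CPM in wild-type B cells (log2 ratio 0.48, 0.43 to 0.52), and Igkc at 7968 and 4801 CPM (0.73, 0.70 to 0.76). Iglc1 was at 861 and 389 CPM (1.15, 1.05 to 1.24), but at 0.73 when the CPM of single cells were averaged. Iglc2 was at 821 and 972 CPM (-0.24), and Iglc3 at 449 and 388 CPM (0.21). Of these genes Iglc2 alone was lower in the knockout sum, and it is the one that could share reads with Iglc3.

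Jchain was at 285 CPM in knockout and 7.88 CPM in wild-type B cells, a log2 ratio of 5.18. Of the 681 knockout Jchain UMIs, 377 and 292 lay in 2 barcodes, both with Ighv4-1 and Igkv6-17. Without these 2 barcodes the Jchain ratio was -0.64 (-1.75 to 0.38), that of Ighm 0.20, that of Igkc 0.32 and that of Xbp1 0.44, while Ighd stayed at 1.74 and Iglc1 at 1.12. Mzb1 went the other way, with 477 CPM in knockout and 683 CPM in wild-type B cells (-0.52, -0.62 to -0.42). Xbp1 was low in both, at 54.3 and 29.5 CPM (0.88, 0.50 to 1.26).

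Igha was at 11.7 and 16.0 CPM in B cells and Ighg2c at 2.51 and 1.69 CPM; both genes, and Xbp1, were below the floor. Of the 7 genes tested, 3 passed 2-fold upward in the knockout (Ighd, Iglc1 and Jchain) and 0 downward, against 2.65% higher and 3.31% lower over all 2147 genes tested (median log2 ratio 0.11). Without the 2 Jchain-rich barcodes, 2 were higher.

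**Figure D2:**
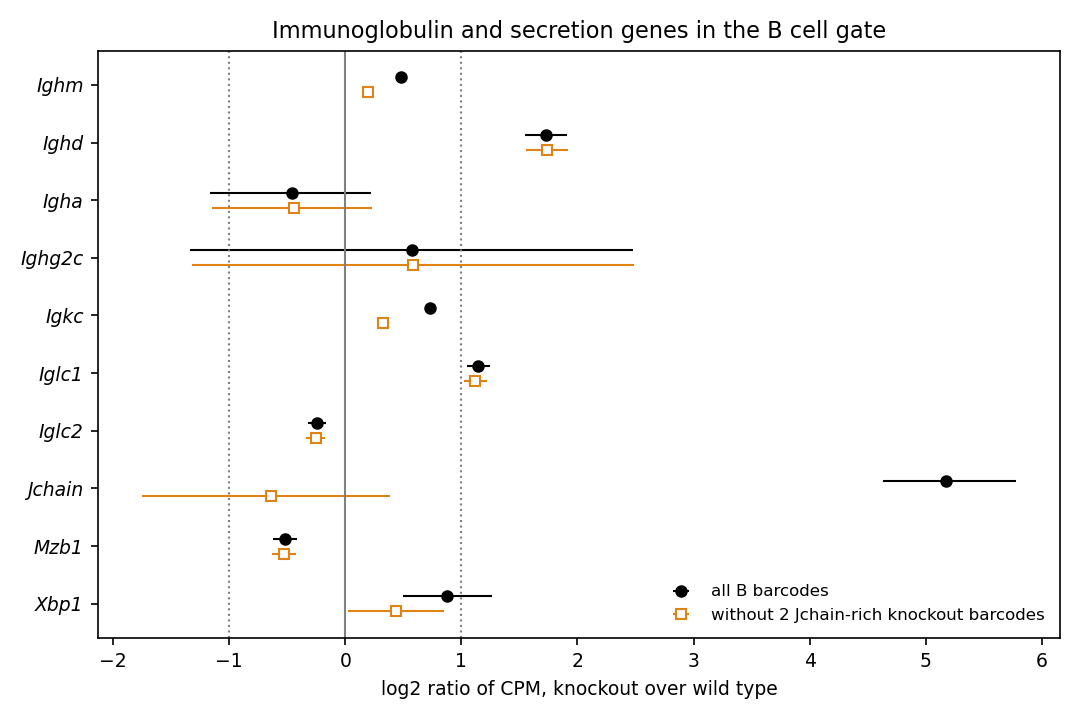
log2 ratio of CPM, knockout over wild type, in the B cell gate (x axis) for each of the 10 genes (y axis), with exact 95% intervals from counting error; filled points use all B barcodes, open squares leave out 2 Jchain-rich knockout barcodes, and dotted lines mark 2-fold. Ighd and Iglc1 lie beyond 2-fold in both, whereas Jchain moves between 5.18 and -0.64.

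Genes that go with naive follicular B cells were higher in the knockout too. Of the 7 follicular genes in the list, 6 were tested in the B cell gate, of which 4 passed 2-fold upward in the knockout and 0 downward, with a median log2 ratio of 1.39. Fcer2a and Cr2 of this list also served as B cell gate markers. Klf2, a factor of naive cell traffic, was the most abundant, at 1281 and 1165 CPM. Of the B-1 and innate-like list, 5 of 8 genes were tested and 1 passed 2-fold upward and 1 downward. The higher one, Plscr1, named after its values were seen, was at 79.0 and 35.2 CPM (1.17). The lower one, Zcwpw1, named by the size of its ratio, was at 193 CPM in the knockout, against 469 CPM in the wild type (-1.28), and Ahnak, the most abundant, at 775 and 970 CPM.

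Zcwpw1 also differed among the B cells within each library. With cells divided by an Ighd UMI at fixed depth, Zcwpw1 had intervals of 15.2 to 38.5 CPM in Ighd-positive and 254 to 306 CPM in Ighd-negative knockout cells, and of 114 to 181 and 510.0 to 563 CPM in wild-type cells. Mzb1 went with Zcwpw1: it stood at 294 CPM in Ighd-positive and 572 CPM in Ighd-negative knockout cells, and at 332 and 756 CPM in wild-type cells. Itgb1 of the B-1 list did so too (66.1 and 308 CPM, then 235 and 322 CPM). Ahnak (533 and 896 CPM) and Plscr1 (28.7 and 105 CPM) did so in the knockout. In wild-type cells these were near level, at 985 and 947 CPM and at 36.1 and 35.4 CPM. Follicular Fcer2a was higher in Ighd-positive cells (231 and 61.9 CPM, then 120 and 19.9 CPM). Cells without an Ighd UMI can still express the gene, since a low transcript is easily missed in 2000 UMIs.

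In each of the other lists at most 1 tested gene passed 2-fold between the B cells of the libraries. Over all 2147 genes tested, 2.65% were higher and 3.31% lower in the knockout, and these lists are short beside that share. Among B cell receptor partners 0 of 9 tested genes passed 2-fold, with Cd79a, the signalling chain that carries surface immunoglobulin, at 2106 CPM in the knockout, against 1568 CPM in the wild type. Syk, the kinase that the receptor recruits, had the largest ratio of them (375 and 219 CPM, 0.77). Of 6 tested switching and fate factors 1 was higher, Bach2, which holds back plasma cell fate (97.4 and 38.3 CPM, 1.35), and Pax5, the B cell identity factor, was most abundant (225 and 145 CPM). None of 16 tested folding genes and none of 18 tested translocation genes passed 2-fold, with medians of 0.06 and 0.04. Of immunoglobulin receptors 1 of 4 tested genes passed 2-fold upward, and of survival signals 1 of 5, the homing receptor Cxcr4 (149 and 49.8 CPM, 1.58).

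Antibody-secreting cells held far more of these transcripts than B cells in both libraries. In the knockout, 8 of the 10 genes were at least 2-fold higher in antibody-secreting cells and 1, Ighd, lower, against 9.93% higher and 34.5% lower over all 1904 genes tested (median log2 ratio -0.60). In the wild type, 7 of 8 tested were higher and 0 lower, against 17.4% and 28.7% of 1801 genes (median -0.21). With the UMIs of each gene's richest barcode subtracted from each gate, 4 were higher and 1 lower in the wild type. The total UMIs of that barcode stayed in the sum, which lowers the CPM of a gate of few barcodes. These counts are therefore not those of a gate without the barcode. Igkc was at 232786 CPM in antibody-secreting and 7968 CPM in B cells of the knockout, and at 272471 and 4801 CPM in the wild type. Xbp1 was at 639 and 54.3 CPM in the knockout, against 745 and 29.5 CPM in the wild type. Mzb1 was at 2722 and 477 CPM in the knockout, against 706 and 683 CPM in the wild type, where the antibody-secreting value rests on 18 UMIs.

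Chaperones and folding enzymes of the endoplasmic reticulum accompanied the immunoglobulin genes. Gate markers were left out of these counts. In the knockout, 15 of 19 tested folding and unfolded protein response genes were at least 2-fold higher in antibody-secreting than in B cells (median log2 ratio 2.31). In the wild type 11 of 18 were (median 1.60), and 0 were lower in either library. Over all genes tested, 9.93% and 17.4% were higher. Of the wild-type 11, Herpud1 (5 UMIs) and Atf4 (7 UMIs) had intervals of the log2 ratio that include 0. Hsp90b1, the chaperone GRP94, was at 3837 CPM in antibody-secreting and 315 CPM in B cells of the knockout (3.61, 3.46 to 3.75), and at 1569 and 278 CPM in the wild type (log2 ratio 2.50). The largest ratios were those of Sdf2l1 in the knockout (344 and 13.0 CPM, 4.73), a partner of the chaperone BiP, and of Edem1 in the wild type (745 and 25.6 CPM, 4.86), which sends misfolded glycoproteins to degradation.

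Genes of entry into the secretory path were also higher, on few UMIs in the wild type. Of the translocation and traffic genes, 18 of 23 tested were higher in the knockout (median 1.63) and 10 of 19 in the wild type (median 1.11), with 0 lower. Over all genes tested, 9.93% and 17.4% were higher. Of the wild-type 10, Ssr1, Ostc, Ddost, Rpn1 and Tram1 rest on 3 to 5 UMIs, with intervals of the log2 ratio that include 0. Ssr4, a subunit of the translocon-associated complex, was at 1490 CPM in antibody-secreting and 168 CPM in B cells of the knockout (3.15), and at 745 and 199 CPM in the wild type (1.90). Lman1, a cargo receptor between the endoplasmic reticulum and the Golgi, had the largest knockout ratio (272 and 27.6 CPM, 3.30), and Spcs2, of the signal peptidase, the largest wild-type ratio (549 and 101 CPM, 2.45).

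Genes of naive cells were lower in the antibody-secreting cells of the knockout, where 34.5% of all tested genes were at least 2-fold lower. Of receptor partners 3 of 5 tested were lower, among them Lyn, a Src-family kinase (36.2 and 300 CPM, -3.05), and all 5 tested follicular genes were lower (median -3.87). Cd81, another receptor partner named after its values were seen, was at 208 and 133 CPM (0.64). In the wild type, where 28.7% of all tested genes were lower, 1 of 4 receptor partners and 1 of 2 follicular genes were lower, at a depth where 1 UMI was worth 39.2 CPM.

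**Figure D3:**
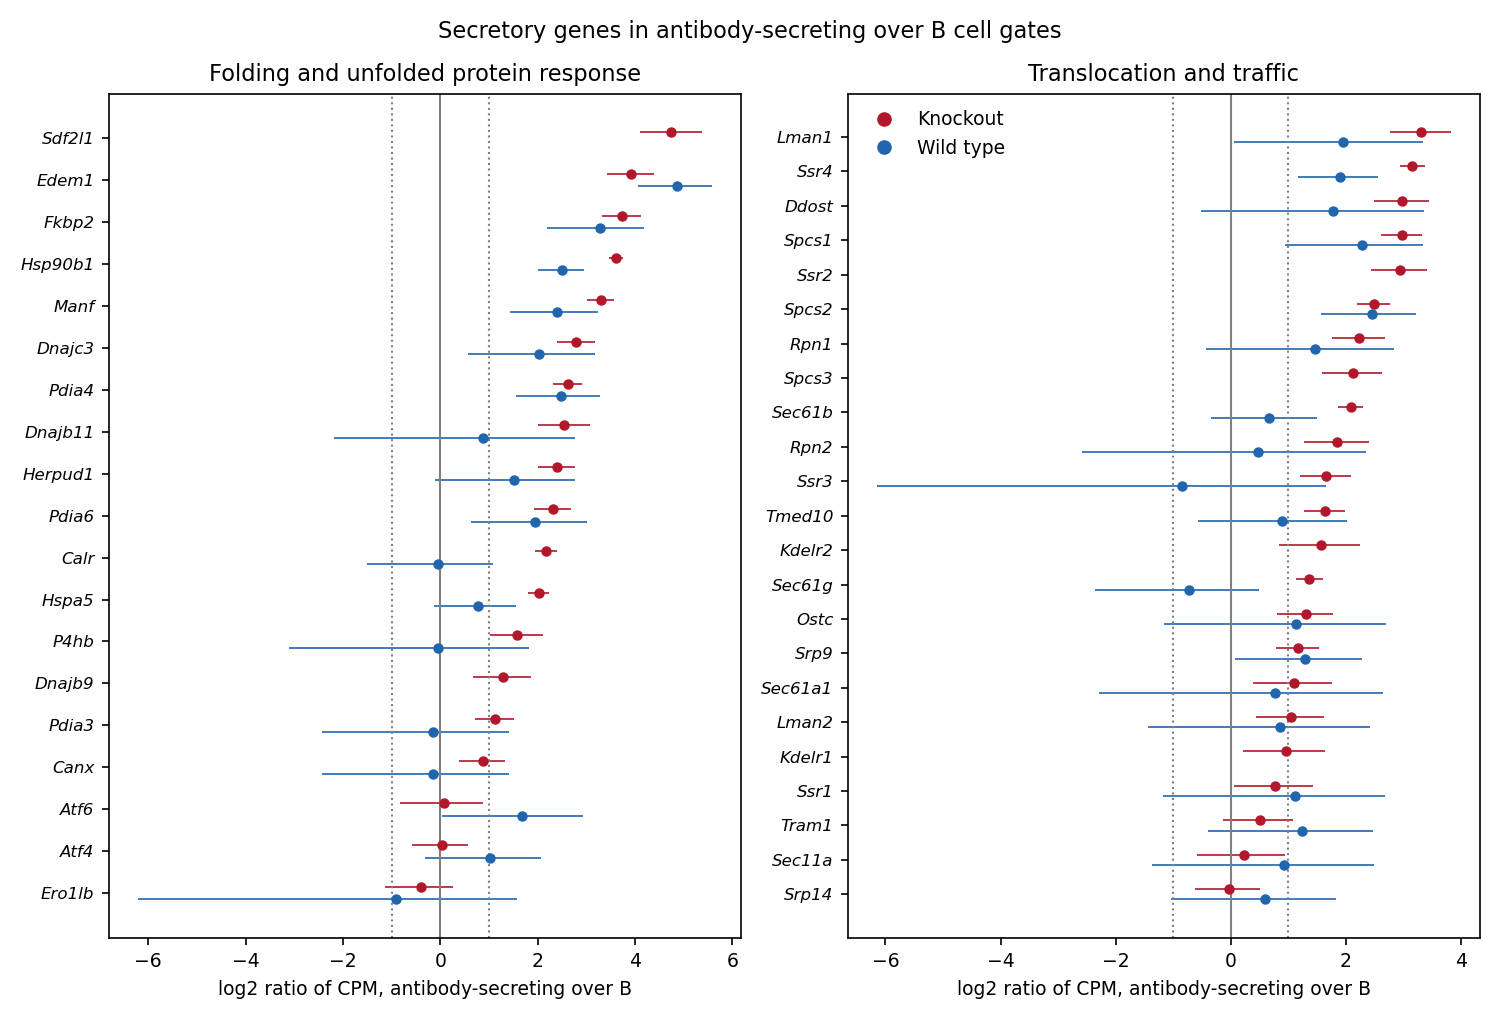
log2 ratio of CPM, antibody-secreting over B cell gate (x axis), for tested folding genes (left) and translocation and traffic genes (right), knockout above wild type in each row, with exact 95% intervals from counting error; dotted lines mark 2-fold. Most knockout points lie to the right of the 2-fold line, and the wild-type intervals are wide at a summed depth of 25500 UMIs.

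Transcripts of these genes also appeared in gates of cell types not known to make antibody. The B and antibody-secreting gates held 89.1% of the kept Igkc UMIs in the knockout, against 74.9% in the wild type, which left 10.9% (10.7 to 11.2%) and 25.1% (24.7 to 25.6%) elsewhere. Gates of other cell types held 2.76% and 11.4%. Barcodes with markers of more than 1 lineage held 4.49% and 6.50%, and barcodes of no gate 3.70% and 7.24%. In the knockout these last 2 groups included Jchain-bearing barcodes of 1987 and 1801 Igkc UMIs. Without any barcode of 10 or more Igkc UMIs, 3.38% and 17.1% remained elsewhere. Igkc was at 29.7 CPM in knockout and 57.6 CPM in wild-type macrophages, at 27.1 and 59.3 CPM in progenitors, at 73.2 and 95.5 CPM in T cells and at 80.6 and 185 CPM in erythroid barcodes. In each of these gates the wild-type level was the higher one, and the 566 and 1449 shallowest barcodes of no gate held 152 and 375 CPM. The last value was 184 CPM without barcodes of 10 or more Igkc UMIs. The knockout was higher over all barcodes of no gate (577 and 271 CPM) and in barcodes with markers of more than 1 lineage (563 and 325 CPM). Without barcodes of 10 or more Igkc UMIs these levels were 41.4 and 123 CPM, and 33.8 and 117 CPM.

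In the knockout most of it lay in few barcodes. Of the Igkc UMIs outside the B and antibody-secreting gates, 71.5% lay in 39 knockout barcodes of 10 or more Igkc UMIs, against 38.5% in 81 such wild-type barcodes. Of these, 31 and 55 had markers of more than 1 lineage, and 5 and 14 were in no gate. Among macrophages no knockout barcode and 4 of 3234 wild-type barcodes had 10 or more Igkc UMIs. Among progenitors there were 2 of 3727 and 5 of 3747, and 1 wild-type erythroid-gated barcode held 185 Igkc and 167 Ighg2c UMIs, which is 43.4% of all wild-type Ighg2c. With macrophages thinned to 2000 UMIs, Igkc was found in 71 of 1184 knockout and 314 of 2488 wild-type cells (12.6%, 11.3 to 14.0%), against 30.2% and 27.2% unthinned. In thinned progenitors it was found in 4.29% and 10.4%.

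Outside the B and antibody-secreting gates, the order of the lambda genes was that of each library's own antibody-secreting gate (31761 CPM of Iglc1 and 1363 of Iglc2 for the knockout, against 1098 and 42000 for the wild type). In knockout macrophages Iglc1 was at 7.30 CPM and Iglc2 at 1.39 CPM, whereas in wild-type macrophages Iglc1 was at 3.33 CPM and Iglc2 at 10.7 CPM, with 53 of its 225 UMIs in 1 barcode. Knockout T cells had 7.16 CPM of Iglc1 and 0.813 CPM of Iglc2, against 2.44 and 11.9 CPM in wild-type T cells. Progenitors had 5.96 and 1.05 CPM in the knockout, against 3.88 and 10.9 CPM in the wild type. The order of the lambda genes in these 3 gates was thus opposite in the libraries. In B cells the knockout held both at a like level (861 and 821 CPM), and in wild-type B cells Iglc2 was the higher (389 and 972 CPM).

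The switched classes and Jchain were low in macrophages and progenitors. Igha was at 4.29 CPM in knockout and 3.71 CPM in wild-type macrophages, and at 3.59 and 5.71 CPM in progenitors. Ighg2c was at 1.62 and 1.95 CPM in macrophages and Jchain at 2.55 and 3.56 CPM. Mzb1 was at 1.10 CPM in knockout and 5.04 CPM in wild-type macrophages, and at 0.890 and 6.35 CPM in progenitors, while its level in B cells was 477 and 683 CPM. Levels were uneven in other gates: Ighg2c was at 1.07 CPM in knockout and 60.6 CPM in wild-type erythroid barcodes, and Igha at 105 and 8.86 CPM in barcodes of no gate, where 1 knockout barcode held 506 of 533 UMIs. Jchain was at 203 and 6.69 CPM in barcodes with markers of more than 1 lineage, where 1 knockout barcode held 664 of 1281 UMIs.

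**Figure D4:**
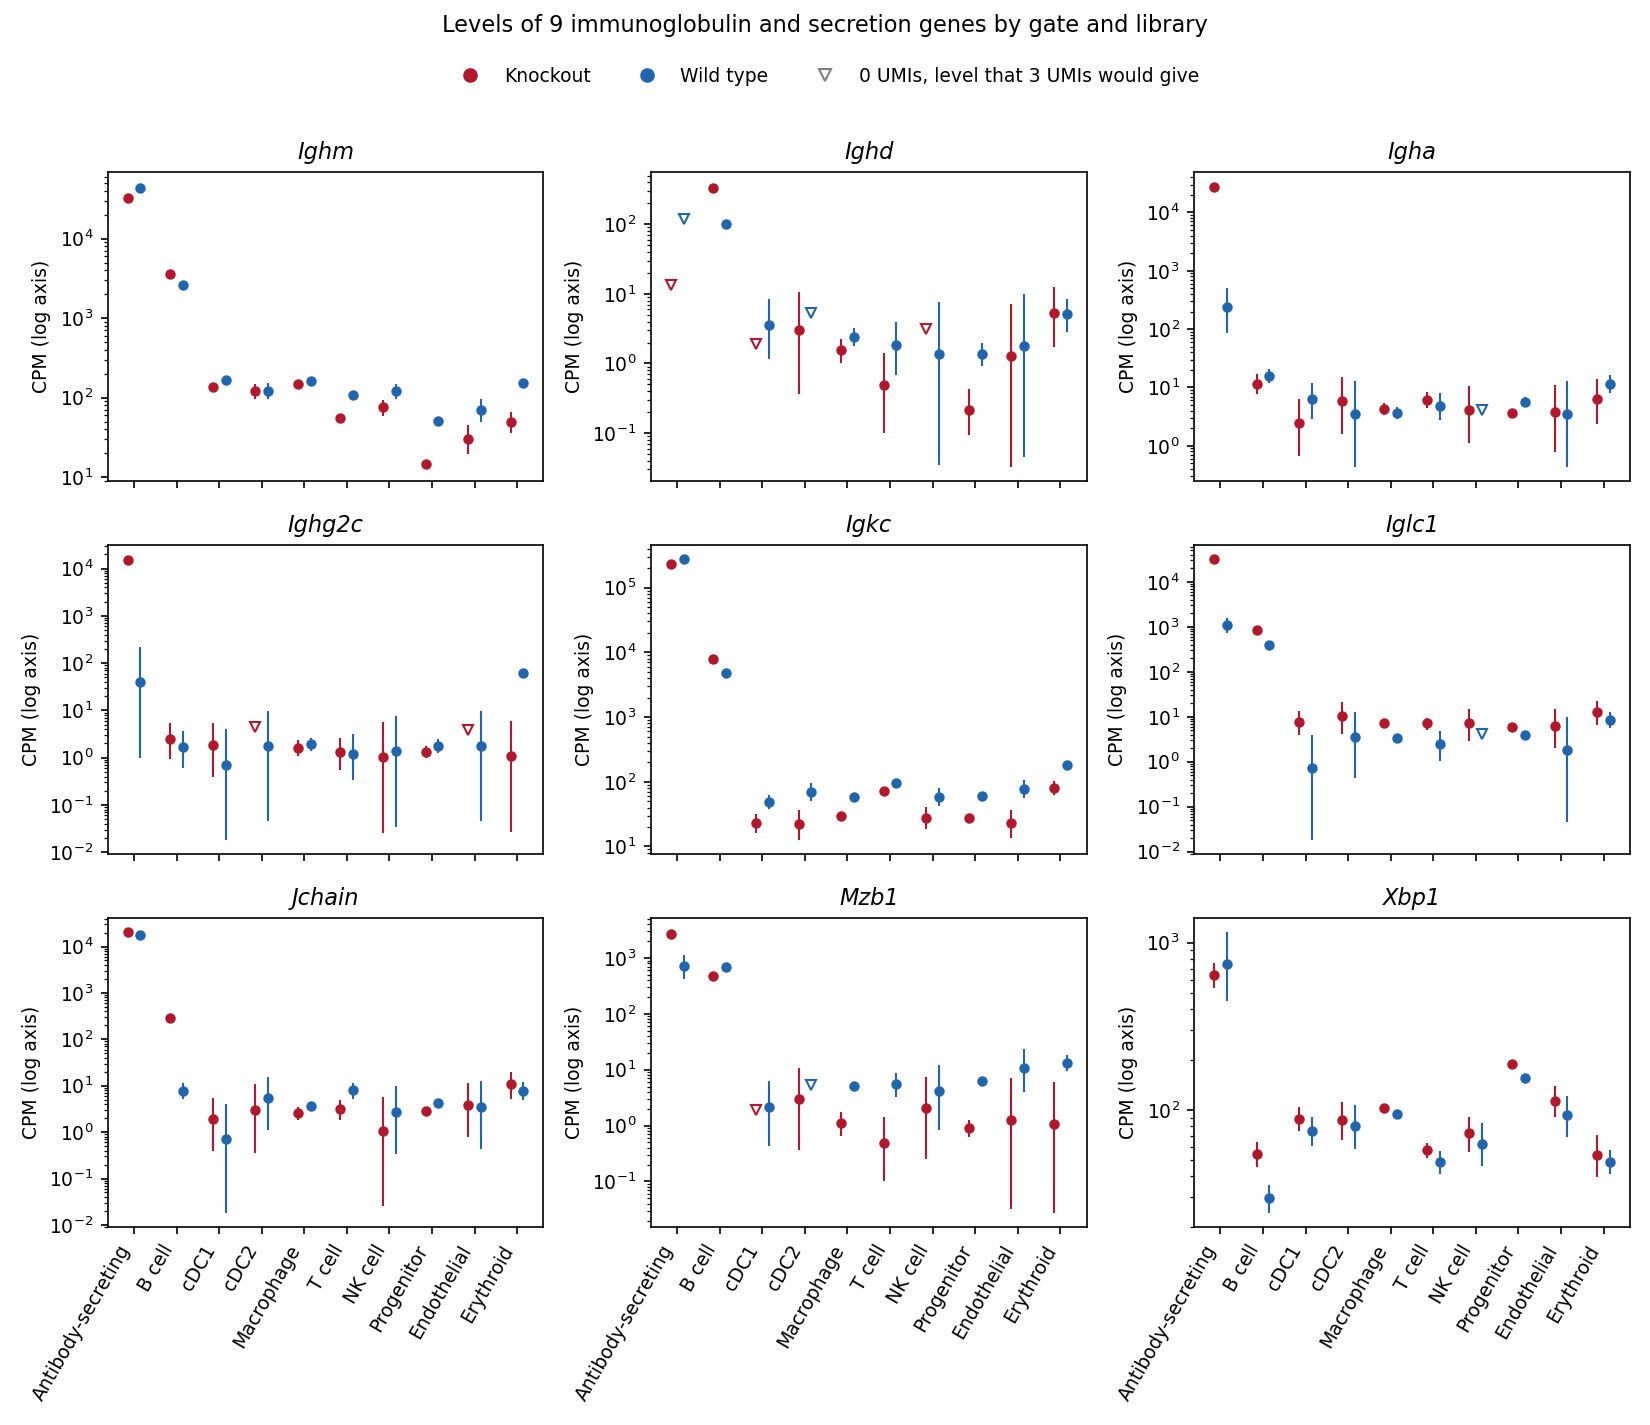
CPM (log axis) of 9 of the 10 genes (panels; Iglc2 left out) in each gate (x axis), knockout in red left of wild type in blue, with exact 95% intervals from counting error; open triangles mark 0 UMIs, drawn at the level of 3 UMIs. Ighm, Igkc and Mzb1 are highest in antibody-secreting and B cells of both libraries, whereas Xbp1 is higher in progenitors than in B cells in both libraries.

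Ighm in macrophages and dendritic cells did not keep the ratio to Igkc seen in B cells. Macrophages held 4.95 Ighm UMIs per Igkc UMI in the knockout (4.50 to 5.46), against 2.79 in the wild type (2.61 to 2.98). B cells held 0.453 and 0.540, antibody-secreting cells 0.138 and 0.159, and the shallowest barcodes of no gate 0.718 and 0.624. The last value was 1.19 without 5 barcodes of 10 or more Igkc UMIs. Type 1 dendritic cells (5.81 and 3.39) and type 2 dendritic cells (5.40 and 1.73) were also above 1, as were natural killer cells (2.70 and 2.07). Mast cells, also myeloid, stood at 0.75 and 0.69, on 3 and 38 Ighm UMIs. T cells stood at 0.762 and 1.12 and progenitors at 0.535 and 0.864. Within each library the intervals of macrophages and of progenitors do not overlap. Free transcripts were not removed from the counts, and their part in these levels was not tested.

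The level of Ighm itself differed between gates of a library. It was at 147 CPM in knockout and 160 CPM in wild-type macrophages, against 14.5 and 51.2 CPM in progenitors and 55.8 and 107 CPM in T cells. Thinned to 2000 UMIs, Ighm was found in 25.3% (22.8 to 27.8%) of knockout and 28.6% (26.8 to 30.4%) of wild-type macrophages. In progenitors it was found in 1.61% and 10.1%, and in B cells in 95.2% and 97.2%. Plasmacytoid dendritic cells, of which 10 knockout and 0 wild-type barcodes were kept, had Ighm at 801 CPM with Igkc at 0, which allows up to 42.1 CPM.

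The Ighm of macrophages came with fewer variable segments than that of B cells. Heavy variable segments were at 2.76 UMIs per 1000 Ighm UMIs in knockout macrophages (1.11 to 5.70) and 2.96 in wild-type macrophages (1.42 to 5.45). B cells held 44.8 (40.4 to 49.6) and 13.0 (10.8 to 15.6), and antibody-secreting cells led by Ighm 33.6 (29.4 to 38.3) and 26.2 (17.5 to 37.9). Without the 2 Jchain-rich barcodes, which held 209 of the 387 segment UMIs, knockout B cells were at 25.2 (21.6 to 29.2). The macrophage values rest on 7 and 10 variable-segment UMIs. Other gates were as low, with T cells at 5.83 and 2.86 and wild-type progenitors at 6.24 (2.50 to 12.9), and their intervals overlap those of macrophages. Knockout progenitors were at 53.9, of which 21 of 29 segment UMIs lay in 1 Jchain-bearing barcode.

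**Figure D5:**
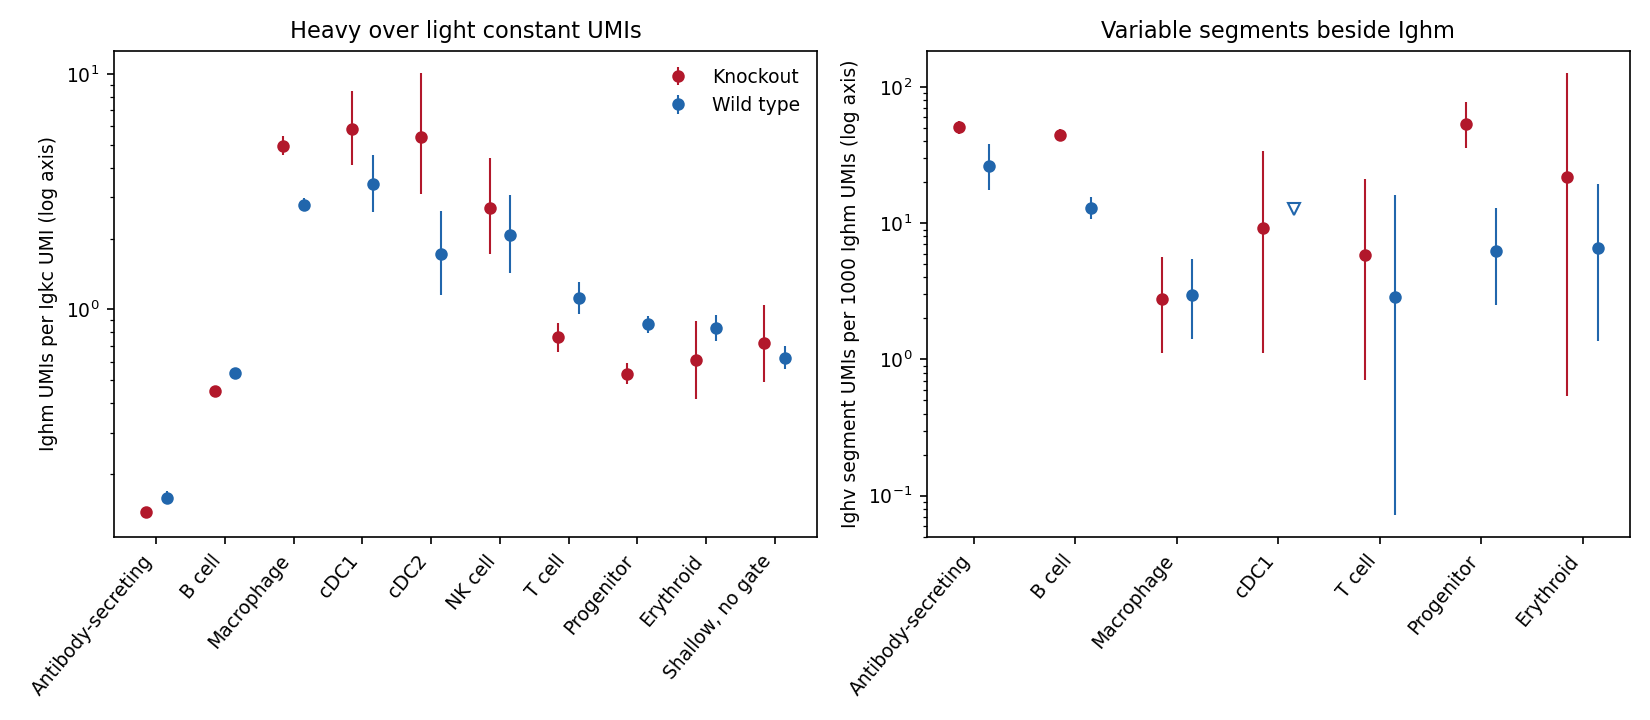
Left, Ighm UMIs per Igkc UMI (log axis) in each gate (x axis); right, heavy variable-segment UMIs of any class per 1000 Ighm UMIs (log axis); knockout in red left of wild type in blue, with exact 95% intervals from counting error and an open triangle for 0 UMIs drawn at the level of 3. Knockout macrophages and dendritic cells lie between 4.95 and 5.81 on the left, against 0.453 in B cells, and macrophages lie at 2.76 and 2.96 on the right.

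Xbp1 was spread over many cell types. B and antibody-secreting cells held 2.35% of its UMIs in the knockout, against 1.65% in the wild type, and the 20 richest barcodes held 2.50% and 2.21%. Its level was highest in antibody-secreting cells (639 and 745 CPM). The 10 plasmacytoid dendritic barcodes of the knockout held 393 CPM (261 to 568). Progenitors held 188 and 155 CPM, knockout monocytes 194 CPM, mesothelial cells 178 and 96.4 CPM, endothelial cells 113 and 92.6 CPM and macrophages 102 and 94.4 CPM. The knockout intervals of progenitors and mesothelial cells overlap, as do those of endothelial cells and macrophages in both libraries. T cells (57.4 and 48.8 CPM) and B cells (54.3 and 29.5 CPM) were lower, and in the knockout their intervals overlap.

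The genes most like each of 5 members were ranked over 13 gates, each of 20 or more barcodes per library, by Pearson correlation of log2(CPM + 1), averaged over the libraries, among 8893 genes. The gates of a library share their depth and free transcripts, so the values are descriptive. Ighm was most like Cd79b (0.91), Fcmr (0.86), Dnajc7 (0.86), Bank1 (0.84) and Fcrl5 (0.84). Mzb1 was most like Pou2af1 (0.95), Pax5 (0.91), Vpreb3 (0.91) and Fcmr (0.90). Jchain was most like Pou2af1 (0.73), Mzb1 (0.73), Pax5 (0.72), Ms4a1 (0.72) and Cxcr5 (0.69). Several of these are B cell gate markers.

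Igha had no close neighbour, the nearest being AU020206 (0.65), Ppm1k (0.59), Grap (0.58), Ms4a1 (0.58) and Ctla4 (0.57). Xbp1 kept other company: Uso1 (0.88), Rrbp1 (0.88), Scarb2 (0.87), P4hb (0.86) and Canx (0.86), of which P4hb and Canx fold proteins in the endoplasmic reticulum. The antibody-secreting gate was not among the 13 gates, so these rankings describe the other cell types.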

How the data were processed

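The members and gene lists were chosen with earlier results of these data known. The authors deposited UMI counts per gene and barcode for each library, made with Cell Ranger 5.0.0 on mm10; Seurat 4.1.1 is also named, per the submitters' processing notes. Replicates are 1 library per genotype, so no test was made and no p-value is given. Barcodes with at least 500 UMIs, 200 genes and at most 20% mitochondrial UMIs were kept. Scrublet (scanpy 1.11.5) called 451 knockout and 0 wild-type doublets by its automatic threshold, which failed in the wild type, so a score above 0.25 was used in both and removed 451 (4.68%) and 480 (3.13%).

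Gates required 4 of 14 markers for B cells and 5 of 12 for antibody-secreting cells, each antibody-secreting marker at no less than 5 times the library's level. Barcodes in which another lineage reached a marker share of 0.5 of the best were called mixed. UMIs were summed per gate and given as CPM. Intervals are exact (Poisson, conditional binomial or Clopper-Pearson, scipy 1.17.1), and a count of 0 is given its limit of 3 counts. A gene was tested with at least 30 UMIs in either sum and a mean of at least 50 CPM over both, and called at 2-fold. A class or light chain needed 5 UMIs. TMM used edgeR 4.0.16 (R 4.3.3). Ratio calls were tested on simulated data. Named were all members, the other constant genes where a class turned on them, the most abundant gene and that of largest ratio in each list, and the 5 nearest neighbours of 5 members. Gene positions and lambda sequences are from GRCm38 with the GENCODE vM21 annotation. Tools were python 3.11.15, numpy 2.4.6, pandas 2.3.3 and matplotlib 3.10.9. Some genes picked by the rule for named genes are not reported here.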

Additional observations from a re-analysis of the deposited data

How the results depend on the processing

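Of 21 alternatives, the share of Igkc UMIs outside the B and antibody-secreting gates was 24.4% in the wild type with the stricter filter, 13.0% in the knockout, against 27.1% in the wild type with no filter, 12.9% and 27.1% with high doublet scores kept, and 10.4% and 26.1% with 1 more marker per gate. With barcodes of 10 or more Igkc UMIs left out of all gates but the B and antibody-secreting ones, it was 3.38% and 17.1%. Ighm per Igkc UMI in macrophages was 4.25 (no filter) and 4.37 (doublet scores kept) in the knockout, against 3.06 (1 more marker) in the wild type. In barcodes of no gate it was 0.317 in the knockout with the stricter filter, 0.172 and 1.02 in the 2 libraries over all such barcodes, and 1.19 in the wild type without barcodes of 10 or more Igkc UMIs. Wild-type translocation genes higher in antibody-secreting cells numbered 19 with immunoglobulin genes left out of CPM and 16 at 1.5-fold. With the UMIs of each gene's richest barcode subtracted but its total UMIs kept, 0 members were lower in knockout than wild-type antibody-secreting cells. In the wild type, 4 were then higher and 1 lower than in B cells. Without the antibody-secreting barcodes led by Iglc1, 2 members were higher in knockout than wild-type antibody-secreting cells, and the Iglc1 ratio turned to -0.00082. The Jchain ratio in B cells turned to -0.64 both with the gate from Jchain, Mzb1 and Xbp1 and without the Jchain-rich barcodes. The alternatives that leave out single barcodes or subtract their UMIs were chosen after seeing the data, and other causes were not tested. No paired analysis was possible because each genotype has 1 library. The 11 knockout and 4 wild-type antibody-secreting barcodes limit every value of that gate.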

Other observations

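Ighg1, the constant gene of an IgG class, lay in different cell types in the libraries. In the knockout 60 of its UMIs were in B cells and 0 in macrophages, which allows up to 0.174 CPM there. In the wild type 0 were in B cells and 69 in 46 macrophages. Those 46 barcodes, picked after their values were seen, held Igkc at 461 CPM, against 54.2 CPM in the other 3188 wild-type macrophages. Their Cd79a stood at 56.9 and 7.14 CPM and their Ighm at 222 and 160 CPM, at median depths of 3063 and 4633.5 UMIs.

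Ighg3 was below the floor in B cells, at 3.34 and 15.5 CPM. It had 8 UMIs there in the knockout, against 55 in the wild type (log2 ratio -2.21, -3.49 to -1.13). No B cell with enough heavy-chain UMIs was led by it, and no barcode of either library held more than 4 of its UMIs. Plasmacytoid dendritic barcodes held Ighm with Iglc3 and no Igkc. With high doublet scores kept, Ighm was at 613 CPM in 11 knockout and 934 CPM in 2 wild-type barcodes, and Iglc3 at 259.9 and 425 CPM, while Igkc was at 0 in both, which allows up to 31.2 and 255 CPM.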
